A study of Mus musculus with 4 samples.

Results

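The cluster described here was the 1 of 23 clusters of mouse kidney cortex nuclei in which Cd74 was highest. It was chosen on the deposited averages, as the cluster with the largest mean of its 4 values for Cd74, the invariant chain that escorts MHC class II molecules. That mean was 15.7 scaled UMIs per 10000, and the next clusters stood at 1.46 and 1.19. A UMI is a tag that marks 1 captured RNA molecule, and every value below is the mean over nuclei of a gene's UMIs scaled to 10000 per nucleus. The members were 4 of the 92 columns of averages, 1 column for each mouse. Since Cd74 and the genes of the same nuclei formed the cluster, its marker genes are given as a description without a test.

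Single-nucleus RNA sequencing was carried out on kidney cortex of 4 male mice of mixed strain, 1 mouse in each of 4 groups. The control mouse carried TRE-hKLF6, a human KLF6 transgene that needs a transactivator, and was labelled as untreated. The control with AAI had the same genotype and was given aristolochic acid I (AAI), a plant nephrotoxin that forms DNA adducts and injures the proximal tubule. The hKLF6OE mouse carried CAG-rtTA and TRE-hKLF6, in which a promoter active in most tissues drives the transactivator, so the human transgene was not restricted to tubules. The hKLF6OE with AAI had that genotype and the same toxin. The methods give a diet with doxycycline to all of these mice before the injection, DMSO as the vehicle, and collection of the kidneys on the day after AAI. Ages are not given in the sources used here. With 1 mouse in each group no test between groups was made, and differences between mice and between groups cannot be told apart. Human KLF6 was not analysed here. Mouse Klf6, which stands beside the transgene and does not check it, was at 1.27 in control, 0.165 in control with AAI, 0.562 in hKLF6OE and 2.22 in hKLF6OE with AAI.

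Macrophages of the kidney lie between tubules and capillaries, take up debris and present peptides on MHC class II. The class II genes share a promoter module, an array of boxes that ends in a Y box bound by NF-Y, and they depend on the coactivator CIITA. Dendritic cells and B cells use the same system, so Cd74 and the class II genes mark antigen presenting cells rather than macrophages alone.

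The promoters of class II genes are shown because each measured gene of that list was highest in this cluster. H2-Aa and H2-Eb1 were among the leading identity genes given below, and the sparse H2-DMb1 and H2-Ob were not. Each sequence is the stretch of 120 bases before the start of the gene, 5′ to 3′ on the strand of the gene, from RefSeq on GRCm38.p6. Capitals mark the letters ATTGG, the core of the Y box, or CCAAT, the same core on the other strand.
H2-Aa, minus strand, chr17:34287824-34287943: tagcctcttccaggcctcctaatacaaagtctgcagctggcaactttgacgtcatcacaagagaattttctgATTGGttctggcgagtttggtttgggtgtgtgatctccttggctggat
H2-Eb1, plus strand, chr17:34305747-34305866: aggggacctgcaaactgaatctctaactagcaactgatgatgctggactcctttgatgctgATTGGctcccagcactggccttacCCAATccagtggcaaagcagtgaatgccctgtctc
H2-DMb1, plus strand, chr17:34153071-34153190: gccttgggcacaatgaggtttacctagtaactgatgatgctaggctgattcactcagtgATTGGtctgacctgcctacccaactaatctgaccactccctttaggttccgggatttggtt
H2-Ob, plus strand, chr17:34238785-34238904: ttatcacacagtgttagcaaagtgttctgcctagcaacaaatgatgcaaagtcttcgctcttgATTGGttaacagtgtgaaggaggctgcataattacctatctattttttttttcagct

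In these promoters the motif began 48 bases before the start for H2-Aa, 59 for H2-Eb1, 61 for H2-DMb1 and 57 for H2-Ob, and H2-Eb1 held a second match at 35. Searched on both strands, ATTGG was found in this window in 7 of the 8 class II genes with a promoter in the table, or 87.5%, against 24.2% of 27025 genes. Over the full 300 bases from 250 before to 50 after the start it was found in 8 of 8, against 41.1% of genes. The letters GAGGAA, the core bound by PU.1, were found in those 300 bases in 14 of the 21 leading identity genes with a promoter, or 66.7%, against 31.3% of genes. They were found in 1 of the 8 class II genes. ATTGG was found in the 300 bases in 8 of the 21 leading identity genes, or 38.1%, against 41.1% of genes. The 21 genes had 32 promoters and all 27025 genes had 32851, so promoters per gene were not alike. A match of letters is a description and does not show that a factor binds there.

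The averages carry traces of the nuclei they were made from. A gene with 1 UMI in 1 nucleus has a value set by that nucleus' total and the number of nuclei, and many genes share such a value exactly. From these steps, 41 nuclei were counted in control, 15 in control with AAI, 77 in hKLF6OE and 27 in hKLF6OE with AAI, 160 in all. The median nucleus held 1004, 1416, 1415 and 1170 UMIs in the same order, and the columns rested on 60982, 25482, 150367 and 40282 UMIs. A count of 0 therefore allowed up to 0.492, 1.18, 0.200 and 0.745 per 10000 UMIs of the column (3 UMIs of its total, counting error only). The values themselves weigh each nucleus the same, so 1 UMI in a small nucleus adds more to them. These limits are thus on another scale than the values. The share of genes at 0 was 49.7%, 63.4%, 38.3% and 56.9%, and the control with AAI, with the fewest nuclei, was the sparsest. Genes with few UMIs could be traced to single nuclei, up to 6 UMIs in control, 13 in control with AAI, 5 in hKLF6OE and 8 in hKLF6OE with AAI. Mitochondrially encoded genes took 3.56%, 1.76%, 4.32% and 2.83% of the value, less in both mice given AAI. Shared barcodes and doublets could not be examined on averages and were not analysed here.

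Of the 27 macrophage core genes with a row other than Cd74, which is on the list and chose the cluster, 19 were highest in this cluster among the 23. Their sum was 27.4, with the other clusters between 2.38 and 31.5. It was second to cluster 17, where podocyte genes were highest and Mertk alone was at 23.4. With Cd74 the sum was 43.1. Adgre1, which encodes F4/80, stood at 1.69, 0.787, 1.29 and 1.15 in control, control with AAI, hKLF6OE and hKLF6OE with AAI, and no other cluster exceeded 0.123. Spi1, which encodes the myeloid factor PU.1, stood at 2.17, 1.05, 1.52 and 1.51. Of the other core genes, Trem2 was at 0 in all 4 mice, Fcgr1 in 3 of them, and Mertk and Maf ranked 14 of 23. Itgam and Cd163 were not analysed here. Dendritic, T, NK and B cell lists also had their highest sum in this cluster. It is therefore called the Cd74-high cluster below, and not macrophages alone.

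Pan-leukocyte genes were the largest listed group among the genes that led the Cd74-high cluster. Identity differences were taken on the log2(value + 1) scale against the next highest cluster. Among 4656 genes with a mean of at least 0.5, 79 differed by at least 1, or 1.70%, and 76 of these were highest in this cluster in each of the 4 mice. Pan-leukocyte genes made up 16 of the 79, macrophage core genes 7 and class II genes 5, with Cd74 counted in both of the latter, while 45 were on none of the lists. The first gene outside the threshold was Adgre1 with 0.99. Cluster 14, where mesangial and fibroblast genes were highest, came next for 39 of the 79, and the endothelial cluster 10 came next for 14.

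The largest difference belonged to Camk1d, a calcium-dependent kinase gene at 2:5293457-5714515 on GRCm38. Its value was 14.2 in control, 23.5 in control with AAI, 9.93 in hKLF6OE and 11.29 in hKLF6OE with AAI, and the next cluster stood at 1.21, which gave a difference of 2.83. Ptprc, which encodes the leukocyte antigen CD45, followed Cd74 with 6.82, 7.18, 6.25 and 9.56 in the same order, against 0.374 in the next cluster. All 4 mice lay above that value for both genes.

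The other leading genes had differences of 1.61 to 2.61. Wdfy4, needed for cross-presentation in dendritic cells, had a difference of 2.61 with values of 4.18, 9.68, 3.78 and 6.02. Fyb, an adaptor of immune cells, had 2.46, and Dock2, an exchange factor for Rac in leukocyte migration, had 2.43. The transcription factor genes Runx1, Ikzf1 and Pou2f2 had differences of 2.26, 1.85 and 1.73. Among kinases and adaptors, Prkcb had 2.02, Pik3ap1 1.88 and Syk 1.65, and Pik3ap1 was the steadiest of these with values of 3.02, 2.61, 3.34 and 2.60. Apbb1ip, Arhgap15, Myo1f, Arhgap45 and Lcp1, which act on adhesion or the actin skeleton, had between 1.61 and 2.01. Mctp1 had 2.25, and the predicted genes Gm26740 and Gm2682 had 2.50 and 1.74. The plot of the leading genes by mouse shows every mouse above the next cluster for each of the 25 genes.

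**Figure D1:**
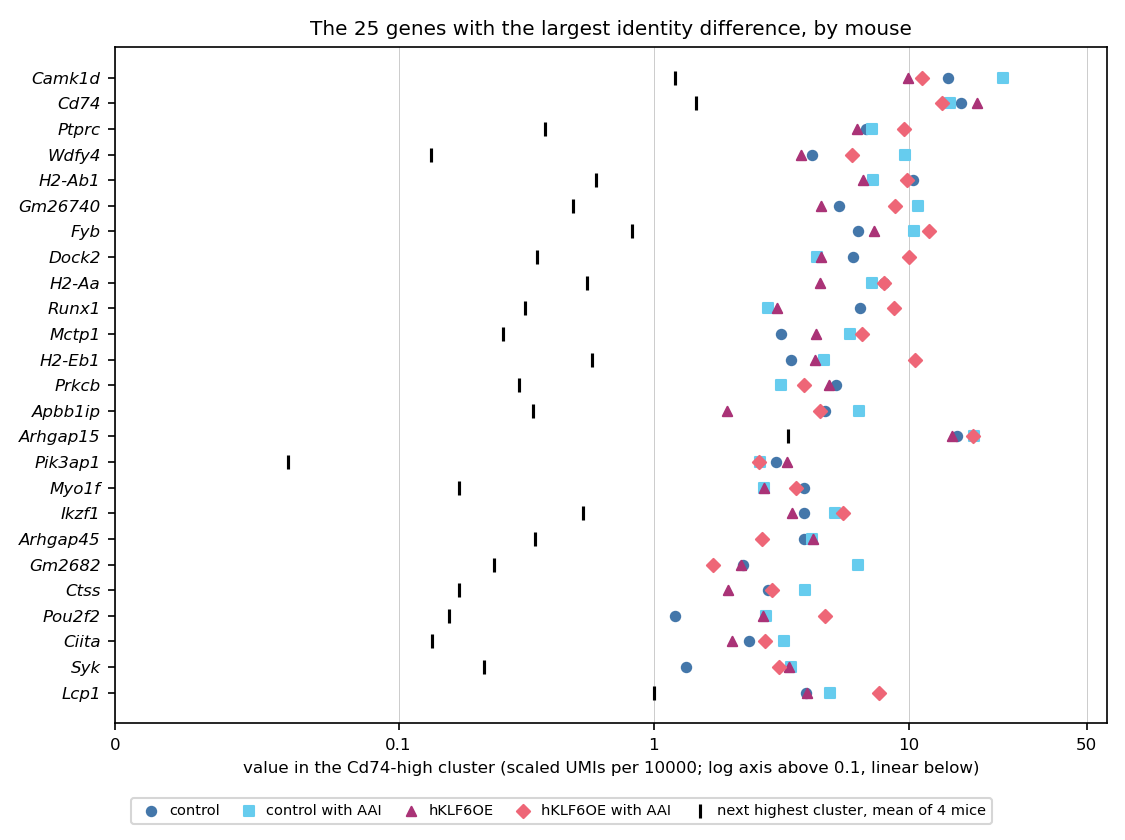
Values of the 25 genes with the largest identity difference in the Cd74-high cluster, 1 symbol per mouse, in scaled UMIs per 10000 on a log axis that is linear below 0.1; black bars are the next highest cluster (mean of 4 mice). Cd74 lay between 13.5 and 18.6 in the 4 mice and at 1.46 in the next cluster.

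All 9 measured class II genes other than Cd74, whose place the rule fixed, were highest in the Cd74-high cluster. Their sum was 25.4, and the highest sum of another cluster was 1.92. H2-Ab1, the beta chain of I-A, was at 10.4 in control, 7.25 in control with AAI, 6.65 in hKLF6OE and 9.90 in hKLF6OE with AAI. H2-Aa, its alpha chain, whose promoter is printed above, was at 8.01, 7.19, 4.48 and 7.99. For both genes hKLF6OE was the lowest and the mice overlapped between treatments. H2-Eb1, the beta chain of I-E, was at 3.45, 4.65, 4.31 and 10.6, and only hKLF6OE with AAI stood apart. Ciita, the coactivator of the list, was at 2.36, 3.23, 2.03 and 2.74, and the highest other cluster was at 0.135.

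The peptide loading genes were sparse. H2-DMb1 was at 0.451, 1.04, 0.943 and 1.54, and it shares near-identical sequence with H2-DMb2, so reads of the pair could be split by the counting. H2-DMa, H2-DMb2, H2-Oa and H2-Ob held at most 2 UMIs in any mouse. In control with AAI, where 5 of the 6 class II genes above 0 could be traced, 41 UMIs other than Cd74 came from 10 of the 15 nuclei, and 17 of them from 2 nuclei of 1303 and 929 UMIs. Class I genes and their peptide supply were less exclusive. Their sum was 18.8 against 15.8 in cluster 10, with 7 of 10 members highest in the Cd74-high cluster and H2-D1 and B2m highest in cluster 10.

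Phagocyte genes differed in how evenly they were held by the mice. C1qa, the A chain of the complement starter C1q, was at 1.97, 1.89, 2.11 and 1.61, and Mrc1, the mannose receptor, at 1.71, 1.57, 1.32 and 1.33, with little spread for either. Cybb, the catalytic subunit of the phagocyte oxidase, was at 2.13, 1.86, 3.24 and 2.02. Lyz2, lysozyme of myeloid cells, was at 2.22, 0.165, 2.39 and 1.43, and the low value was 1 UMI in 1 of the 15 nuclei of control with AAI. Even steady values rested on few nuclei, since Mrc1 in control with AAI was 2 UMIs of 1 nucleus.

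Among the receptors and signalling genes of myeloid cells, 19 of 24 were highest in the Cd74-high cluster, with a sum of 32.9 against at most 7.79 elsewhere. Csf1r, the receptor that macrophages need to survive, was at 2.24, 2.41, 1.11 and 0.661, higher in both control mice than in both hKLF6OE mice. The chemokine receptor gene Ccr2, carried by monocytes and their descendants, was at 2.81, 1.44, 1.21 and 1.73. Tgfbr1 was at 4.19, 7.13, 5.26 and 10.4. It was higher with AAI by 0.65 and 0.87 on the log2 scale, short of the difference of 1 counted below. By 0.5 in both genotypes, 2 of 17 genes of this list were higher and 1 lower, against 5.44% and 5.97% of all genes. Card9 was at 0 in all 4 mice.

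The myeloid transcription factor list was also highest in this cluster, at 33.2, with 7 of 18 members highest. Of its other members, Zeb2 at 13.3 came second to cluster 14, while Mitf ranked 15 and Hif1a 17. Lysosome and phagocytosis genes were shared with other clusters, since their sum of 41.7 was second to 43.2 in cluster 6 and 5 of 23 members were highest. Psap, the precursor of the saposins, was steady at 9.36, 8.55, 10.1 and 10.6. Cytokine genes gave 11.38 in sum, rank 3 of 23, of which Spp1 (osteopontin) gave 3.65 although it ranked 11. Tnf, Il10 and Il1b were each seen in 1 of the 4 mice, with 1, 1 and 4 UMIs. The interferon response list gave 12.2, second to 15.9 in cluster 10, and 10 of 23 members were highest in the Cd74-high cluster.

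Transcripts of other immune cells were few, and 6 of their lists were highest in the Cd74-high cluster. The dendritic cell list gave 8.24, monocyte 5.10, neutrophil 0.964, T cell 5.14, NK cell 1.10 and B and plasma cell 5.02, each the highest of the 23 clusters. Flt3, a receptor of dendritic cell precursors, was at 0.908, 1.20, 0.7997 and 0.317, and Clec9a, a receptor of cross-presenting dendritic cells, at 0.515, 0, 0.718 and 0.315. Bank1, a B cell scaffold, was at 1.47, 1.30, 3.35 and 2.37, and Ighm, the heavy chain of IgM, at 0.646, 0.995, 1.84 and 1.89. Skap1, a T cell adaptor, was at 3.41, 2.80, 1.18 and 1.57, and Themis, a thymocyte gene, at 0.416, 1.19, 0.649 and 0.878.

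Of the lymphocyte lists, 4 of 15 T cell genes were at 0 in all 4 mice, namely Cd3e, Trac, Il7r and Tcf7. So were Ms4a1, 1 of 10 B and plasma cell genes, and Eomes, 1 of 7 NK cell genes. In the same order, 9, 7 and 6 genes of these lists were highest in the Cd74-high cluster. The monocyte gene Ly6c2 and the neutrophil genes S100a8, Camp and Ltf were at 0 as well. The mast cell list gave 0.237 and ranked 4, with Cpa3 and Ms4a2 at 0.

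In control with AAI, 16 of the 20 UMIs of T and NK cell genes came from 2 nuclei, 8 each in nuclei of 1685 and 1416 UMIs. The first of these held no macrophage core UMI other than Cd74, the second held 1, and neither held a traced class II UMI. All 3 UMIs of Themis lay in 1 nucleus and so did all 3 of Ncr1, an NK receptor gene. In hKLF6OE with AAI, 15 of 23 T and NK cell UMIs came from 2 nuclei, of 1099 and 1650 UMIs, with 0 and 10 traced macrophage core UMIs. In the same mouse 8 of 12 B and plasma cell UMIs lay in 1 nucleus of 936 UMIs with no traced macrophage core UMI, and this nucleus held all 6 UMIs of Bank1. S100a9, a neutrophil gene, had a value of 2.83 there that was 4 UMIs of 1 nucleus of 523 UMIs. In control, 1 nucleus of 931 UMIs held 5 of 12 B and plasma cell UMIs.

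In the mice without AAI, and for the monocyte list, traced UMIs lay in more nuclei. In control, 24 traced T and NK cell UMIs lay in 12 nuclei, with 9 of them in 2 nuclei. The 15 traced dendritic cell UMIs of control lay in 11 nuclei. Tracing stopped at fewer UMIs per gene in control and hKLF6OE, which also had more nuclei. Their spread therefore cannot be compared with that of the mice given AAI. In hKLF6OE, the 24 T and NK cell UMIs that could be traced lay in 12 nuclei, with 8 in 2 nuclei. Monocyte UMIs numbered 12 in 8 nuclei of control with AAI and 15 in 12 nuclei of hKLF6OE with AAI. The maps of single nuclei show the T and NK cell and the monocyte UMIs of the mice given AAI.

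**Figure D2:**
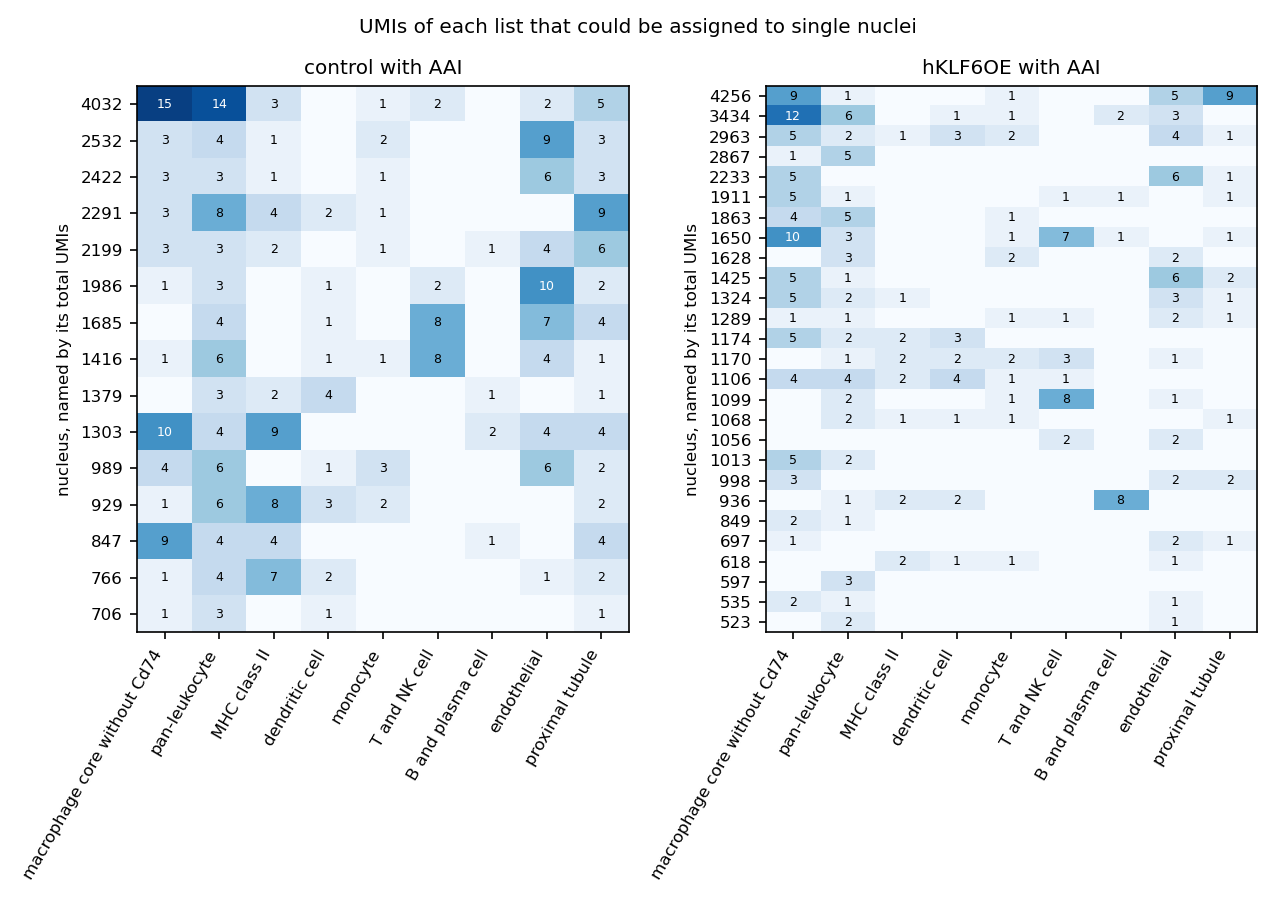
UMIs of 9 gene lists traced to single nuclei in the 2 mice given AAI; each row is a nucleus named by its total UMIs, each column a list, and genes with too many UMIs to trace are not included. T and NK cell UMIs reached 8 in the nuclei of 1685 and 1416 UMIs of control with AAI.

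At least 2 pan-leukocyte genes were traced to 15 of 15 nuclei of control with AAI (exact 95% interval 78.2% to 100%) and to 14 of 27 of hKLF6OE with AAI (51.9%, interval 32.0% to 71.3%). At least 2 macrophage core genes other than Cd74 were traced to 8 of 15 (53.3%, 26.6% to 78.7%) and to 14 of 27 (51.9%, 32.0% to 71.3%). These shares are lower limits, because abundant genes could not be traced, and the intervals cover counting error of the traced share only. Of 24 pan-leukocyte genes above 0 in each of these mice, 17 were traced in control with AAI and 11 in hKLF6OE with AAI. The shares of the mice therefore cannot be compared on that list. In control and hKLF6OE, only 31.2% and 8.19% of the value could be traced, and shares of nuclei are not given for them.

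Endothelial transcripts made up the largest non-immune and non-tubular list in the Cd74-high cluster. The endothelial list summed to 63.2, second to 224 in cluster 10, and the median of the other 22 clusters was 3.26. By mouse the sum was 61.2 in control, 84.6 in control with AAI, 55.3 in hKLF6OE and 51.5 in hKLF6OE with AAI. Of the 24 genes, 15 ranked second, 2 ranked first and Egfl7 was at 0. The ratio to cluster 10, where Flt1 was highest, had a median of 0.290 over the 24 genes, with quartiles of 0.242 and 0.359, and it was below 0.5 for 21 of them. In single mice the median ratio was 0.306, 0.262, 0.256 and 0.224 in the order above.

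Several endothelial genes of different roles had ratios near the median of the list. Flt1, a VEGF receptor gene, was at 6.19, 10.7, 4.65 and 5.17, with a mean of 6.68 against 22.7 in cluster 10, a ratio of 0.294. Emcn, the endothelial sialomucin, had a ratio of 0.286, Tek, the angiopoietin receptor gene, 0.266, and Pecam1, which encodes CD31, 0.331. Kdr, the other VEGF receptor gene of the list, had 0.193 and Shank3 0.159. Vwf and Pi16 were above 1, at 2.13 and 1.80, with at most 3 UMIs in any mouse. In the plot of both clusters, all drawn genes but Vwf and Pi16 lay below the line of equal values. Their ratios ran from 0.159 for Shank3 to 0.560 for Nostrin.

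**Figure D3:**
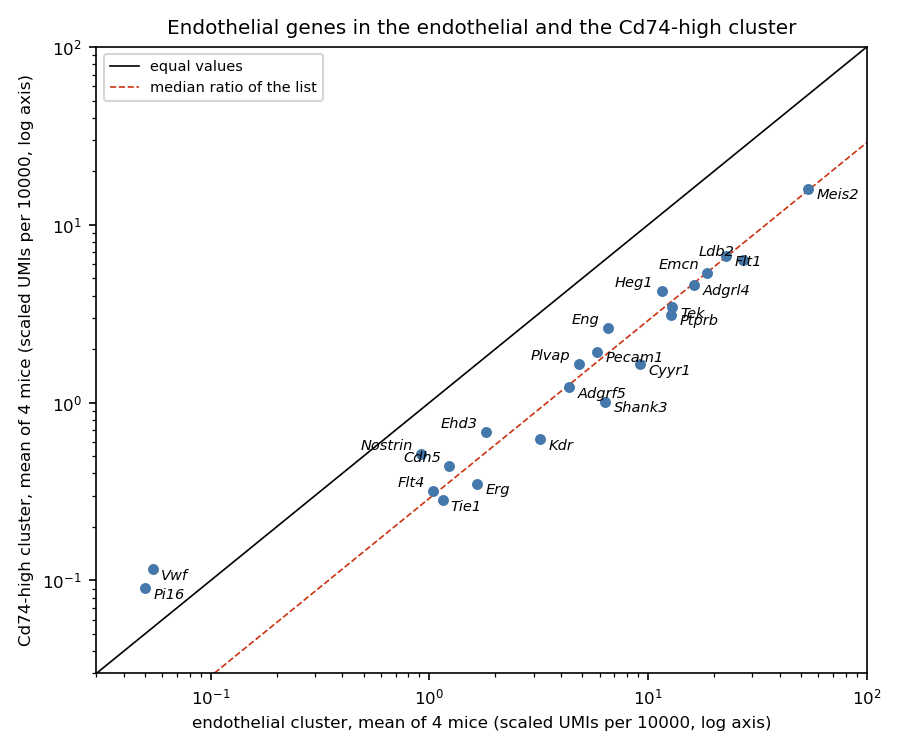
Mean value of 23 endothelial genes in the endothelial cluster 10 (x axis) and the Cd74-high cluster (y axis), both in scaled UMIs per 10000 on log axes; the solid line marks equal values and the dashed line the median ratio of 0.290. Vwf and Pi16 are the points above the solid line, and Egfl7, at 0 in the Cd74-high cluster, is not drawn.

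Over all genes, 271 were highest in cluster 10 with the Cd74-high cluster second. Among those with the largest values in cluster 10 were transcription factor genes, with ratios of 0.295 for Meis2 and 0.566 for Tcf4. Ptprg, Plpp1, Plpp3, Adgrl4 and Hipk2 had ratios of 0.298, 0.291, 0.236, 0.283 and 0.420. Among the other 22 clusters, cluster 8 came next to cluster 10 for Pecam1, at 1.90 against 5.83. The Cd74-high cluster itself was at 1.93. Against cluster 8 the median ratio of the list was 1.37, so the list was lower there than in the Cd74-high cluster.

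Some nuclei held both endothelial and leukocyte UMIs, and others held endothelial UMIs without those of a given leukocyte list. In control with AAI, 9 of 15 nuclei had at least 2 traced endothelial genes (60%, exact 95% interval 32.3% to 83.7%). The most were 10 and 9 endothelial UMIs, in nuclei of 1986 and 2532 UMIs. Of these 9 nuclei, 6 had at least 2 macrophage core genes other than Cd74, 3 had at least 2 class II genes and 3 had at least 2 T and NK cell genes. The pan-leukocyte list, with at least 2 genes in all 15 nuclei, overlapped with any other list there.

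In hKLF6OE with AAI, 9 of 27 nuclei had at least 2 traced endothelial genes (33.3%, 16.5% to 54.0%). Of these 9, 6 had at least 2 macrophage core genes other than Cd74, 4 at least 2 pan-leukocyte genes, 1 at least 2 T and NK cell genes and 0 at least 2 class II genes, of which 3 of 7 could be traced. The 14 nuclei with at least 2 pan-leukocyte genes included 10 outside the 9. Whether shared nuclei exceeded the overlap of independent lists was not tested.

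Tubule transcripts were present at the level of other clusters. The proximal tubule list summed to 196, twelfth of the 23 clusters, within a range of 86.2 to 365 in the others and with a median of 163. The distal nephron list gave 38.1, also twelfth, and the podocyte list 6.998, rank 14. The mesangial, pericyte and fibroblast list gave 4.08, rank 3 of 23, with Col1a1, Col3a1, Acta2, Rgs5 and Tagln at 0 and Itga8 highest in the Cd74-high cluster. The plot of list sums shows the pan-leukocyte, class II, T, NK and B cell sums of every mouse above the range of the other clusters, and the tubule sums inside it.

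**Figure D4:**
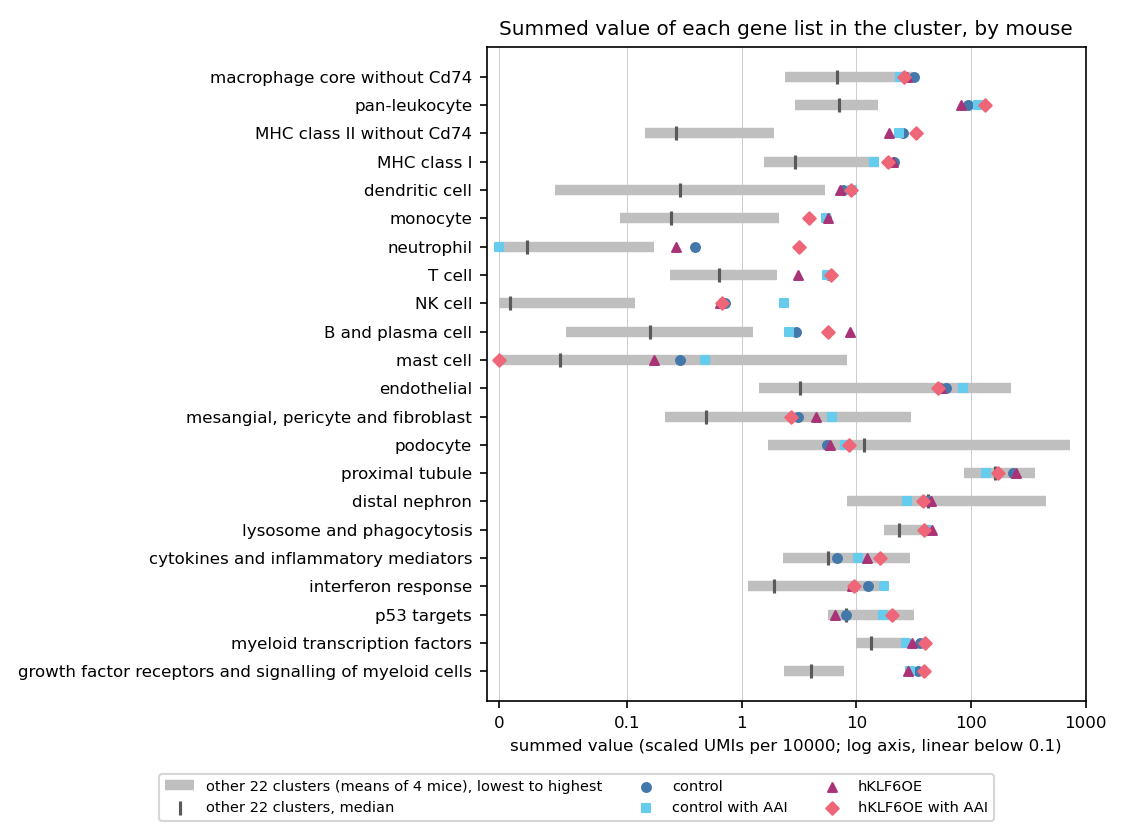
Summed values of the 22 gene lists in the Cd74-high cluster, 1 symbol per mouse, in scaled UMIs per 10000 on a log axis that is linear below 0.1; grey bars span the means of the other 22 clusters and black ticks mark their median. Cd74 is left out of both lists that hold it, and the class II sums of 19.2 to 33.2 lie above the bar, which ends at 1.92, and the endothelial sums lie inside theirs.

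AAI was compared with no AAI within each genotype, to see which changes appeared in both. A gene was counted when log2(value + 1) differed by at least 1 the same way in both genotypes, among 4655 genes with at least 0.5 on the larger side in each. With 1 mouse in a group this is a description of these 4 mice. There were 16 genes higher in both, or 0.344%, 34 lower in both, or 0.730%, and 12 in opposite directions, or 0.258%. Within one genotype many more genes passed, 277 higher and 338 lower in control (5.95% and 7.26%) and 137 higher and 148 lower in hKLF6OE (2.94% and 3.18%). The median difference of all 4655 genes was 0.01 in control and 0.04 in hKLF6OE.

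Among the 16 higher genes were 2 of the p53 list. Cdkn1a, which encodes the cell cycle inhibitor p21, was at 0 in control and 1.04 in control with AAI, and at 0.222 in hKLF6OE and 1.81 in hKLF6OE with AAI. Those values were 0, 2, 1 and 6 UMIs, held by 0, 2, 1 and 5 nuclei. Trp53inp1, a stress-induced p53 target, was at 0.702 and 2.96 and at 0.0843 and 1.28, differences of 1.22 and 1.07. These values were also few UMIs, namely 3, 6, 3 and 5, held by 3, 4, 2 and 5 nuclei. Across the other 22 clusters the averaged value of Cdkn1a was higher by 0.69 and 0.93 and Trp53inp1 by 1.31 and 1.03.

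P2ry6 and Entpd1 were higher in the Cd74-high cluster while the mean of the other clusters stayed within 0.15. The UDP receptor gene P2ry6, known from phagocytes, was at 0.0484 and 2.26 in control without and with AAI and at 1.36 and 4.47 in hKLF6OE, differences of 1.64 and 1.21. Entpd1, which encodes CD39, was at 0.923 and 8.17 and at 0.584 and 2.31, differences of 2.25 and 1.06. Both genes were highest of the 23 clusters in each mouse given AAI. P2ry6 in control with AAI was 4 UMIs in 4 nuclei.

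Polr2a, the gene of the largest subunit of RNA polymerase II, was at 0.223 and 2.56 in control and at 0.977 and 3.39 in hKLF6OE, higher by 1.54 and 1.15. In control these were 3 UMIs, with an exact 95% Poisson interval of 0.101 to 1.44 per 10000 UMIs of the column, and 7 UMIs in 5 nuclei, with 1.10 to 5.66. The mean of the other clusters was higher by 0.80 and 0.82. Apobec3, a cytidine deaminase gene, was at 0 and 2.51 and at 0.539 and 2.96, and the value in control with AAI was 6 UMIs in 3 nuclei. The count of 0 in control allowed up to 0.492 per 10000 UMIs of the column, which is not the scale of these values.

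The other genes by size of the smaller difference were Tll1, Zfp981, Rapgef5, Tmx4 and Dock11. Tll1, a metalloprotease gene, had 2.59 and 1.42, Rapgef5, a guanine exchange factor gene, 1.66 and 1.16, and Dock11, an activator of Cdc42, 1.59 and 1.05. Tmx4 had 1.06 and 1.10 on 2 and 4 UMIs with AAI. Zfp981 had 1.61 and 1.19 beside 1.35 and 0.78 in the other clusters. For 11 of the 16 genes the mean of the other clusters moved by less than 0.5 in both genotypes, and for 5 it was higher by at least 0.5 in both. For 13 of the 16, the side with AAI was held by at least 3 nuclei or could not be traced in each genotype. This alternative was chosen after seeing the data. Tll1, Rapgef5 and Entpd1 could not be traced in either mouse given AAI, so their numbers of nuclei are not known.

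The 10 leading genes of the 34 lower ones included Inmt, Akr1c21, Ass1, Pck1 and 1 gene of the macrophage core list. Inmt, a methyltransferase gene, was at 2.74 and 0.396 in control without and with AAI and at 3.96 and 0.315 in hKLF6OE. Akr1c21, a steroid dehydrogenase gene, was at 4.055 and 0 and at 2.82 and 0.531. Ass1, the argininosuccinate synthase gene of the proximal tubule, was at 5.31 and 1.23 and at 6.09 and 1.92. Pck1, the gluconeogenic carboxykinase gene, was at 2.94 and 0 and at 9.16 and 3.25. In the mean of the other clusters the log2 differences were -0.89 and -1.45 for Inmt and -0.59 and -0.80 for Akr1c21. They were -0.83 and -1.23 for Ass1 and -0.18 and -0.40 for Pck1. Among the 10 leading genes were also Wdfy2, Negr1, Gabarapl1, mt-Atp6 and Pcx, with smaller differences of 1.45, 1.38, 1.26, 1.22 and 1.22 in size.

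The proximal tubule list moved beside these genes. Its sum was 232 in control and 134 in control with AAI, and 245 in hKLF6OE and 173 in hKLF6OE with AAI, and its median difference over 16 genes was -0.62 and -0.32. In the mean of the other 22 clusters the median difference of the same list was -0.28 and -0.22. Miox, the kidney myo-inositol oxygenase gene, was the 1 of its 16 genes counted as lower, with 5.75 and 2.09 in control and 8.04 and 1.68 in hKLF6OE. At a difference of 0.5, 4 of the 16 were lower in both genotypes, against 5.97% of all genes. None of the list was at 0. For 12 of the 34 genes the other clusters were also lower by at least 0.5 in both genotypes, and for 17 they stayed within 0.5. The part of tubule transcripts in these values was not tested. Of the 34, 3 were mitochondrially encoded, 14 were at 0 in control with AAI, 9 in hKLF6OE with AAI and 5 in both.

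F13a1, the factor XIII A gene carried by resident and monocyte-derived macrophages, was the 1 macrophage core gene counted as lower. It was at 2.27 in control and 1.49 in hKLF6OE and at 0 in both mice given AAI, while the other clusters moved by 0.01 or less. In control its value was 6 UMIs of 2 nuclei, so 2 of 41 nuclei carried it, and in hKLF6OE its UMIs could not be traced. The counts of 0 in 15 and 27 nuclei allowed up to 1.18 and 0.745 relative to the UMIs of the column, which is not the scale of these values. On the scale of the column, the 6 UMIs of control had an exact 95% Poisson interval of 0.361 to 2.14. That interval includes the limit of 1.18, so these counts do not show that F13a1 in control lay above it.

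**Figure D5:**
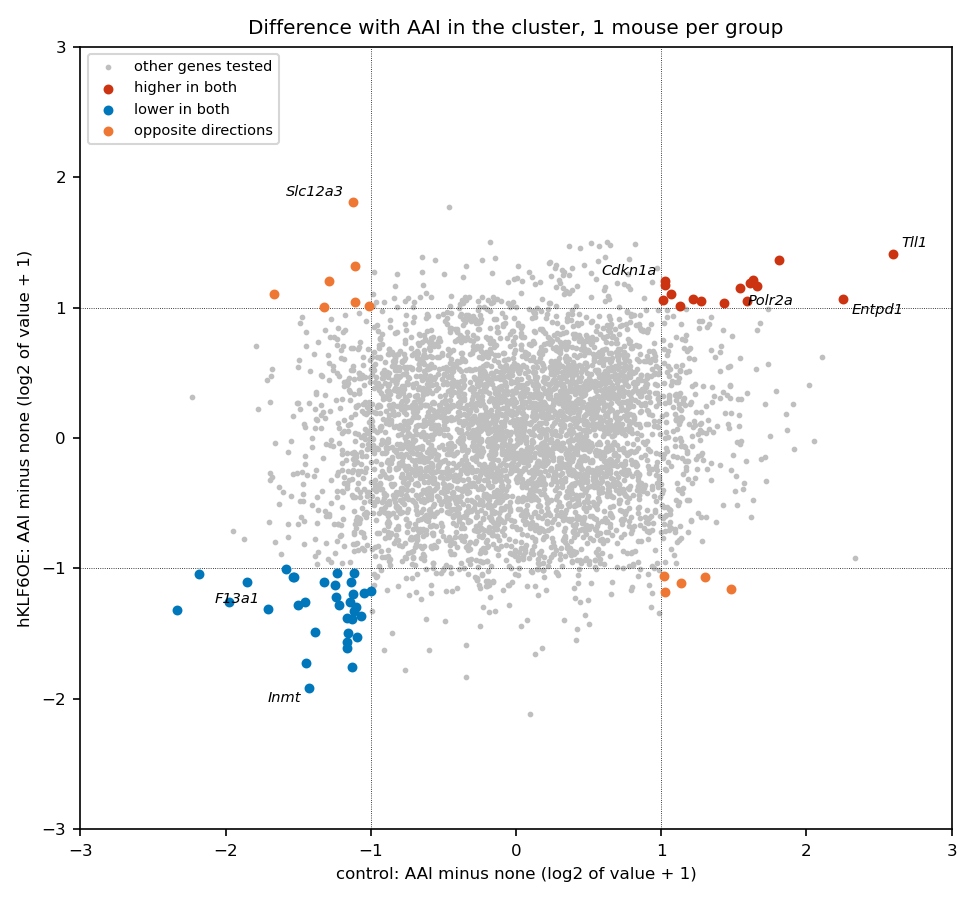
Difference with AAI in the Cd74-high cluster for 4655 genes, as log2(value + 1) with AAI minus without, in control (x axis) and hKLF6OE (y axis), 1 mouse per group; dotted lines mark differences of 1 and -1. Red points are the 16 genes higher in both, blue points the 34 lower in both and orange points the 12 in opposite directions.

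Few listed genes were counted among these 50. The p53 list had 2 of 9 genes with enough signal higher in both and 0 lower, and its sum was 8.11 in control, 17.2 in control with AAI, 6.57 in hKLF6OE and 20.5 in hKLF6OE with AAI. Its median difference was 0.44 and 0.73, below the 0.69 and 0.92 of the mean of the other clusters. At a difference of 0.5 in both genotypes, which 5.44% of genes reached upward, the list had 4 of 9, with Mdm2 at 1.37 and 0.63 and Btg2 at 0.96 and 0.63 besides the named pair.

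The macrophage core had 0 of 17 genes higher and 1 lower, with medians of -0.14 and -0.07. Without Cd74 the medians of its 16 genes were -0.36 and -0.04, and its sum was 31.8, 24.1, 27.5 and 26.1 in control, control with AAI, hKLF6OE and hKLF6OE with AAI. With Cd74 the sum was 47.9, 38.7, 46.1 and 39.7. Both sums were lower with AAI in each genotype, in hKLF6OE by less without Cd74 than with it. The pan-leukocyte sum was 94.1, 115, 82.2 and 133, higher with AAI in both. None of its 22 genes differed by 1 in both genotypes. By 0.5 in both, 4 of the 22 were higher, namely Inpp5d, Fyb, Cyth4 and Dock8, against 5.44% of all genes. The medians of the list were 0.23 and 0.54. Inpp5d, the SHIP1 phosphatase gene, was at 7.06 and 12.2 and at 7.68 and 14.1. Class II sums without Cd74 were 25.7, 23.4, 19.2 and 33.2 and moved in opposite directions in the genotypes.

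Apart from Miox of the proximal tubule list, no gene of the other lists differed by 1 the same way in both genotypes. The background was 0.344% higher and 0.730% lower. The median differences were -0.22 and 0.12 for 7 class I genes, 0.27 and -0.04 for 4 dendritic cell genes, -0.33 and -0.61 for 3 monocyte genes, 0.12 and 0.46 for 4 T cell genes and 0.09 and -0.17 for 2 B and plasma cell genes. They were 0.39 and -0.11 for 17 endothelial genes, 0.01 and -0.20 for 19 lysosome genes, 0.23 and 0.27 for 5 cytokine genes and 0.14 and 0.22 for 8 interferon genes. For 11 myeloid transcription factor genes they were -0.56 and 0.20, and for 17 receptor and signalling genes -0.16 and 0.21. The remaining medians were 1.17 and -0.14 for 2 mesangial genes, 0.49 and 0.44 for 3 podocyte genes and -0.24 and -0.37 for 6 distal nephron genes. Neutrophil, NK cell and mast cell genes were too low to be compared.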

How the data were processed

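Kidney cortex nuclei of 4 mice, 1 in each group, were read from the deposited table of cluster averages. Per the labels and the methods, the authors used Cell Ranger with a pre-mRNA reference for the mouse (mm10), filtered nuclei by gene number and mitochondrial share and clustered them with Seurat, with the 4 samples prepared together. The deposited values are a signal: UMIs scaled to 10000 in each nucleus and averaged on a linear scale over the nuclei of 1 cluster and 1 mouse, so that each nucleus weighs the same. How doublets were treated is not given for them.

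Of 19632 rows, 23 with date-like names, at most 0.252% of a column, were left out. Nuclei were counted from values shared by at least 5 genes that gave whole UMI totals at the printed 9 decimals. A gene was traced to nuclei where 1 combination of them gave its value, with at most 0.01 accidental matches expected per gene. In control, 1 step stood for 2 nuclei. The scripts were tested on simulated data. Differences used log2(value + 1) and understate changes of low genes. Intervals are exact (Clopper-Pearson, Poisson).

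The genes named are listed genes, the 25 largest identity differences, the 10 largest differences with AAI in each direction, 10 endothelial cluster genes and Polr2a. Some of these are not reported here. The members and the 22 gene lists were chosen with earlier results of these data known. Software was scipy 1.17.1, pandas 2.3.3, numpy 2.4.6, matplotlib 3.10.9 and Python 3.11.15. Alternatives changed the pseudocount, minimum, threshold, scaling, reference and mice.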

Additional observations from a re-analysis of the deposited data

Results flagged for a closer look

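Slc12a3, the sodium chloride cotransporter gene of the distal convoluted tubule, moved in opposite directions with AAI in the 2 genotypes. It was at 6.33 in control and 2.36 in control with AAI, a difference of -1.13 on the log2(value + 1) scale, and at 1.54 in hKLF6OE and 7.90 in hKLF6OE with AAI, a difference of 1.81. The difference between genotypes was not tested. The value in control with AAI was 5 UMIs in 4 nuclei. It was the 1 listed gene past the threshold in opposite directions, among 12 such genes of 4655.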

How the results depend on the processing

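Of 36 alternatives, 17 left a count or ratio within 1.5 times or 1 SD and 19 moved it. The 79 identity genes became 241 with a pseudocount of 0.1, 15 with a threshold of 2 and 240 against the mean of the other clusters, and 78 to 87 without one mouse. The 16 genes higher with AAI became 222 with a pseudocount of 0.1, 10 with a minimum of 2, 253 with a threshold of 0.5, 0 with a threshold of 2 and 8 after subtracting the other clusters, of which 6 were among the 16. The 34 lower genes became 278, 16, 278, 0 and 15 in the same order, of which 9 were among the 34 in the last. Chosen after seeing the data, hKLF6OE alone gave 173 higher and 160 lower and control alone 369 and 392, with the minimum of 0.5 applied in that genotype alone, so more genes were compared. The endothelial ratio of 0.290 became 1.37 against cluster 8 and 0.224 in the lowest mouse. The 160 nuclei became 161 or 150 when a step needed 3 or 10 genes. No paired analysis was possible because the labels give no replicate numbers that link mice across groups. Depth limits the mice given AAI most, with 15 and 27 nuclei.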
